A study of Mus musculus with 12 samples.

Results

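Stress granules and processing bodies (P-bodies) are cytoplasmic assemblies of mRNA and protein. Messages whose translation has stalled at initiation gather in stress granules with small ribosomal subunits, initiation factors and RNA-binding proteins, and P-bodies hold the enzymes that remove the cap and degrade the message. Tia1 and its paralog Tial1 bind U-rich elements in mRNA and help to nucleate stress granules. The values below are the mRNA abundances of 10 genes that encode proteins of these granules: the RNA-binding proteins Tia1 and Tial1, the assembly proteins G3bp1, G3bp2, Caprin1 and Atxn2, the poly(A)-binding protein Pabpc1, the helicase Ddx6 and the decapping proteins Dcp1a and Dcp2. They were taken by gene name from a table of 29486 genes, and each name matched 1 row. No measured value entered the rule, and the list was drawn up with earlier results of these data known.

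The RNA came from primary B cells isolated from the spleens of adult C57BL/6Babr mice and activated in culture with lipopolysaccharide (LPS, 10 µg/ml), a mitogen for B cells. The 12 libraries of poly(A) RNA fall into 3 conditions of 4 biological replicates. In the condition named LPS the cells had LPS for 48 h. In the condition LPS+Etoposide the cells had LPS for 48 h and then etoposide (20 µM, 4 h), which traps topoisomerase II on DNA and leaves double-strand breaks. In the condition LPS+KU55933+Etoposide the cells had LPS for 47 h, then KU55933 (10 µM), an inhibitor of the damage kinase ATM, for 1 h, and then etoposide (20 µM, 4 h). Every culture held LPS, and no cells with KU55933 alone were analysed here. The labels leave out when the cells with LPS alone were collected relative to the 4 h of etoposide, and which cultures shared a mouse. Each condition carried its own sequencing indexes, so that index and condition cannot be told apart.

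The deposited columns do not hold independent replicates. Within each condition any 2 columns stood in 1 ratio over all 29486 genes, with a largest departure of 1.39e-14 on the log2 scale, so each gene has 1 fitted value per condition, multiplied by a factor for the library. The spread between replicates is therefore not in the values, and none of the differences below could be tested against it. Each is given as a size, with a 95% counting interval that treats the sum of the 4 columns as reads and covers counting error only. A gene is said to be past the limit when 2 conditions differed by at least 1.5-fold, which is 0.58 on the log2 scale, and no p-value is given. Column totals ranged from 20400994 to 30575195. The values were divided by a factor per library, the median ratio over 13712 genes, and 15613 genes reached 10 in at least 4 libraries, among them all 10 granule genes.

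The cells carried the markers of their label. The 4 B cell markers Cd79a, Cd79b, Ms4a1 and Pax5 summed to 78781 in LPS, 51566 in LPS+Etoposide and 48335 in LPS+KU55933+Etoposide, while 4 T cell markers summed to between 6.92 and 8.28, 5 macrophage markers to between 393 and 451 and 3 red blood cell markers to between 39.2 and 84.1. The p53 targets Cdkn1a and Mdm2 were 33.9-fold and 6.6-fold higher with etoposide than with LPS alone. With KU55933 added they were lower than with etoposide by log2 differences of -0.33 and -0.82. They still stood at 10869 and 9582 there, beside 402 and 2562 in LPS. These B cell markers summed to less in both conditions with etoposide, and the part of this in any value that follows was not tested. In bulk RNA fewer cells of a type and less RNA per cell cannot be told apart.

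Tia1 and Tial1, and likewise G3bp1 and G3bp2, are paralogs, and their values can be read separately only if a read can be assigned to 1 of them. The coding sequences of Tia1 (1158 bases) and Tial1 (1176 bases) were identical at 76.2% of 1105 aligned positions, and those of G3bp1 (1395 bases) and G3bp2 (1446 bases) at 69.1% of 1359. In each pair the longest stretch without a difference was 17 bases, against reads of 100 bases. It stands in capitals here, within its flanks in the coding sequence, from GENCODE M21 transcripts on GRCm38, and the letters outside the capitals show how soon the copies part.

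Tia1, coding positions 301 to 347, exons 5 and 6, chr6:86419124-86420360 (+): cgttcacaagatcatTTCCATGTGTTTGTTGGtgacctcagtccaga

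Tial1, coding positions 325 to 371, exons 4 and 5, chr7:128448172-128448351 (-): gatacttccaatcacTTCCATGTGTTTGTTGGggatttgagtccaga

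G3bp1, coding positions 1 to 32, exon 2, chr11:55485644-55485675 (+): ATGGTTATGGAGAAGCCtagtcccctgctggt

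G3bp2, coding positions 1 to 32, exon 2, chr5:92073223-92073254 (-): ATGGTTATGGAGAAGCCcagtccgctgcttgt

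No window of 100 bases was shared within either pair, so a whole read could not match both paralogs without a difference. Copies elsewhere were small in value where the table listed them, which cannot show that a member kept its reads. How reads that match 2 genes were counted is not given in the sources used here. Tia1 shared 5.8% of its windows with Gm44790, an overlapping gene of the same strand that the table did not list. Pabpc1 shared 5.33% of its windows with 2 other genes, nearly all of them (5.3%) with Gm16580, whose value averaged 1.97% of that of Pabpc1, and Ddx6 and G3bp1 shared 2.3% and 2.45% of theirs with Gm13410 and Gm5913, at 0.482% and 0.676% of the member's value. G3bp2 shared 43.0% of its windows with Gm26582 on the opposite strand, which stood at 0.642% of its value. Sh2b3, which overlaps Atxn2 on the opposite strand, stood at 357% of the value of Atxn2. The Atxn2 transcript searched shared 0 of its 4373 windows with any other gene. The strand setting of the counting is not given in the sources used here. That leaves the values of G3bp2, with any ratio built on it, and of Atxn2 uncertain to a degree not known here.

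Tia1 (ENSMUSG00000071337, 13 exons at chr6:86404219-86433405 on GRCm38, plus strand) encodes an RNA-binding protein that is a common marker of stress granules. Its mRNA was lower with etoposide than with LPS alone and higher with KU55933 and etoposide than with etoposide, with differences under the limit of 1.5-fold. The deposited columns of Tia1 read 3191, 3540, 3682 and 3318 in LPS, 3195, 3581, 4338 and 3472 in LPS+Etoposide, and 3595, 4054, 4343 and 4414 in LPS+KU55933+Etoposide. The columns of the 3 conditions overlap. As each column is 1 fitted value times a library factor (0.84 to 0.97 in LPS, 0.96 to 1.3 in LPS+Etoposide and 0.90 to 1.11 in LPS+KU55933+Etoposide), overlap or separation of columns, here and for the genes that follow, moves with library depth and shows nothing of agreement between replicates. After division by the library factors Tia1 stood at 3807 in LPS, 3338 in LPS+Etoposide and 3992 in LPS+KU55933+Etoposide. Etoposide was lower than LPS by a log2 difference of -0.19 (counting interval -0.22 to -0.16), a change of -12.3%, and KU55933 with etoposide was higher than etoposide by 0.26 (0.23 to 0.29), or 19.6%. Over the 4 other scalings the first ranged from -0.26 to -0.09 and the second from 0.25 to 0.37. Against LPS the cells with both compounds differed by 0.07, and this ranged from -0.004 with TMM factors to 0.20 with column totals and 0.28 with quantile normalization, so that no direction can be given for it. The difference of 0.26 was larger in size than that of 49.6% of all genes in the same comparison, and that of -0.19 larger than 25.6%.

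Tial1 (ENSMUSG00000030846, 12 exons at chr7:128439777-128461717, minus strand) encodes TIAR, a protein of the same domain order as Tia1. The deposited columns read 2594, 2878, 2994 and 2698 in LPS, 2844, 3188, 3861 and 3090 in LPS+Etoposide, and 2631, 2966, 3178 and 3230 in LPS+KU55933+Etoposide. With the library factors removed it stood at 3096, 2971 and 2921 in that order. The 3 conditions lay within 1.06-fold of each other, and each of the 3 log2 differences, -0.06, -0.02 and -0.08, took the other sign with column totals and with quantile normalization. No direction can be given for Tial1.

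The ratio of Tia1 to Tial1 in a library is not altered by a factor applied to that whole library. It was 1.23 in LPS (counting interval 1.2 to 1.26), 1.12 in LPS+Etoposide (1.1 to 1.15) and 1.37 in LPS+KU55933+Etoposide (1.33 to 1.4). The counting intervals of the 3 ratios do not overlap, and the spread between replicates is not known. On the log2 scale the ratio was lower by -0.13 with etoposide and higher by 0.28 when KU55933 was added to etoposide, and with quantile normalization, which does not scale a library as a whole, these were -0.13 and 0.32. Which paralog was the more abundant depends on the length used: per base of coding sequence the ratio was 1.14 in LPS+Etoposide, and per base of all annotated exons it was 0.49, since the exons annotated for Tia1 span 15750 bases and those for Tial1 6903.

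**Figure D1:**
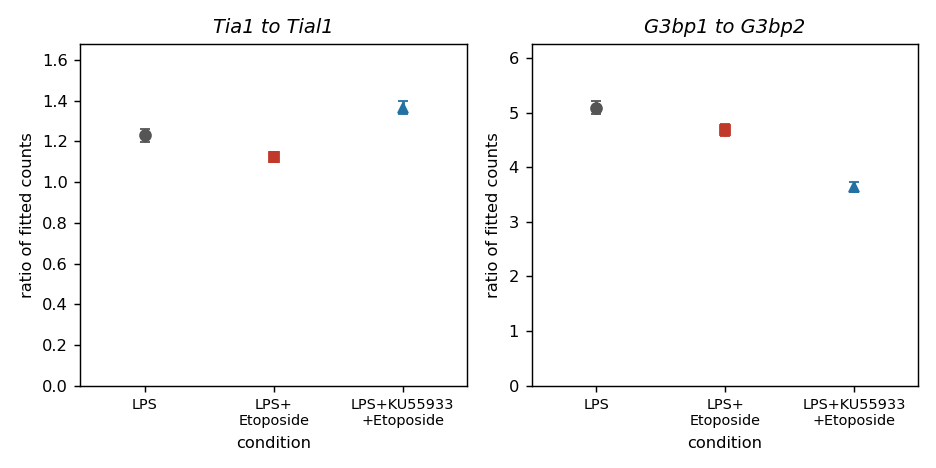
Ratio of the fitted count of Tia1 to that of Tial1 (left) and of G3bp1 to that of G3bp2 (right) on the y axes, in the 3 conditions on the x axes. Bars are 95% counting intervals, without the spread between replicates. Tia1 to Tial1 was lowest in LPS+Etoposide at 1.12, and G3bp1 to G3bp2 was 5.09 in LPS and 3.64 in LPS+KU55933+Etoposide.

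G3bp1 (ENSMUSG00000018583, 12 exons at chr11:55469685-55504838, plus strand) encodes the RNA-binding protein whose self-association with RNA seeds stress granules. It was the one granule gene past the limit in any comparison. It was lower with etoposide than with LPS alone and lower again with both compounds. G3bp1 columns as deposited read 9762, 10831, 11266 and 10152 in LPS, 8619, 9660, 11700 and 9365 in LPS+Etoposide, and 6085, 6862, 7351 and 7472 in LPS+KU55933+Etoposide. Before the library factors were removed, the 4 columns with both compounds lay below all 8 others, and those of LPS and LPS+Etoposide overlap. Corrected values were 11648, 9004 and 6758. G3bp1 was lower with etoposide than with LPS by a log2 difference of -0.37 (-0.39 to -0.35) and lower again with KU55933 by -0.41 (-0.44 to -0.39), and with quantile normalization these were -0.13 and -0.30. Cells with both compounds had 1.72-fold less G3bp1 mRNA than cells with LPS alone, a log2 difference of -0.79 (-0.81 to -0.76). It stayed past the limit with TMM factors, column totals and factors from genes of 1 read, which were tried after the data were seen, and with quantile normalization it was -0.43 and within the limit.

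G3bp2 (ENSMUSG00000029405, 12 exons at chr5:92052146-92083719, minus strand) is the paralog that can stand in for G3bp1 in granule assembly. Its deposited columns read 1917, 2126, 2212 and 1993 in LPS, 1839, 2061, 2497 and 1998 in LPS+Etoposide, and 1671, 1885, 2019 and 2052 in LPS+KU55933+Etoposide, so that all 3 conditions overlap. Corrected values were 2287, 1921 and 1856, a log2 difference of -0.25 for etoposide against LPS and of -0.30 for both compounds against LPS, the latter from -0.37 to -0.17 over the other scalings. The difference of -0.05 between KU55933 with etoposide and etoposide turned positive with column totals and with quantile normalization. G3bp1 was the more abundant of the pair by every measure of length, with a ratio of 5.09 (4.97 to 5.21) in LPS, 4.69 (4.58 to 4.8) in LPS+Etoposide and 3.64 (3.55 to 3.73) in LPS+KU55933+Etoposide. The step from etoposide to KU55933 with etoposide was -0.36 on the log2 scale (-0.41 to -0.31), so that G3bp1 was lower with KU55933 by more than G3bp2 on any scaling of whole libraries. With quantile normalization that step was -0.31, the difference in the ratio between both compounds and LPS was -0.24 in place of -0.48, and that between etoposide and LPS turned from -0.12 to 0.07, so that no direction can be given for the ratio with etoposide alone.

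Caprin1 (ENSMUSG00000027184, 19 exons at chr2:103762941-103797649, minus strand) encodes a partner that binds G3bp1 and favours granule assembly. The columns of Caprin1 read 13963, 15491, 16115 and 14521 in LPS, 12313, 13800, 16714 and 13378 in LPS+Etoposide, and 10380, 11705, 12540 and 12746 in LPS+KU55933+Etoposide. The columns with both compounds lie below those of LPS and overlap those of LPS+Etoposide. Corrected values were 16660, 12863 and 11528. The log2 differences were -0.37 (-0.39 to -0.36) for etoposide against LPS, -0.16 (-0.18 to -0.14) for KU55933 with etoposide against etoposide and -0.53 (-0.55 to -0.51) for both compounds against LPS. The last was just inside the limit and passed it with TMM factors alone, at -0.60. With quantile normalization the 3 differences were -0.18, -0.11 and -0.29. With any scaling of whole libraries Caprin1 and G3bp1 differed from LPS by nearly the same amount with etoposide, with a ratio of Caprin1 to G3bp1 of 1.43 in LPS and in LPS+Etoposide, and with KU55933 the ratio was 1.71.

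Atxn2 (ENSMUSG00000042605, 25 exons at chr5:121711337-121816493, plus strand) encodes ataxin-2, which binds Pabpc1 and Ddx6. It was the least abundant of the 10 genes. Its deposited columns read 708, 786, 817 and 737 in LPS, 864, 969, 1173 and 939 in LPS+Etoposide, and 633, 714, 765 and 777 in LPS+KU55933+Etoposide. Before the library factors were removed, those of LPS+Etoposide lay above all the others. Corrected values were 845, 903 and 703, and the log2 difference of KU55933 with etoposide against etoposide was -0.36 (-0.43 to -0.29), a larger difference in size than in 63.1% of all genes. Against LPS, Atxn2 differed by 0.10 with etoposide (0.03 to 0.16) and by -0.27 with both compounds (-0.34 to -0.19). Over the other scalings these ranged from 0.03 to 0.17 and from -0.34 to -0.14.

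G3bp1 and Caprin1 were the genes lower by more than 0.1 on the log2 scale in all 3 comparisons under each scaling tried, and their promoters are shown for that reason. The windows run from 250 bases before to 50 bases after the RefSeq start site (GRCm38), in the direction of transcription. Capitals mark every match, on either strand, to 4 motifs. The first was GGGCGG, the GC box that factors of the SP1 family bind. Another was CCAAT, which is the box recognised by the trimeric factor NF-Y. The others were TATAAA, as in the TATA box of many inducible genes, and the p53 decamer RRRCWWGYYY. In it R is A or G, W is A or T and Y is C or T. A single decamer counted as a match, which is not a whole p53 site.

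G3bp1, chr11:55469502-55469801 (+): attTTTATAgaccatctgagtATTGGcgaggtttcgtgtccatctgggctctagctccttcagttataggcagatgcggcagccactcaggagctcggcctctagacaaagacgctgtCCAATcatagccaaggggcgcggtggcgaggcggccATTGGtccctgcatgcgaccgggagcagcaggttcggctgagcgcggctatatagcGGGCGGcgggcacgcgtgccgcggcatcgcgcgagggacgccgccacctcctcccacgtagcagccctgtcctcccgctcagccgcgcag

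Caprin1, chr2:103797029-103797328 (-): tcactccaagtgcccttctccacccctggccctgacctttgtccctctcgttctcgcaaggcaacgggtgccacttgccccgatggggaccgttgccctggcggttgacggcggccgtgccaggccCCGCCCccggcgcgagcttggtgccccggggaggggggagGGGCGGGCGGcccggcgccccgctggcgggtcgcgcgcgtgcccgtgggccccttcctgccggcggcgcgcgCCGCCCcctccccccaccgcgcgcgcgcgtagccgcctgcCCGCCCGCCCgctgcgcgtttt

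The windows held different letters. The G3bp1 window held 3 matches to CCAAT, 1 to the GC box and 1 to TATAAA. The TATAAA match lies on the opposite strand at the far upstream end of the window, and it is not read as a TATA box. The Caprin1 window held 6 matches to the GC box, of which overlapping ones run together in the capitals, and none to the other motifs. Of 32851 RefSeq windows, 35.7% held a match to the GC box, 37.4% to CCAAT, 13.6% to TATAAA and 8.36% to the p53 decamer. The search covered 7 of the 10 genes with 11 windows. Pabpc1 and Ddx6 had no window, and Dcp2 is not reported here. The GC box was in a window of 5 of the 7 genes and the CCAAT box in a window of 2. Tial1, G3bp2 and Atxn2 have more than 1 window, so these counts of genes cannot be set beside the shares of windows. None of the 11 windows held the p53 decamer, which says only that these letters were not there.

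Pabpc1 (ENSMUSG00000022283, 15 exons at chr15:36595661-36609668, minus strand) encodes the cytoplasmic poly(A)-binding protein, which coats the tail of the message and contacts the cap complex. It was the most abundant of the 10 genes, with 0.186% of all signal in LPS, 0.231% in LPS+Etoposide and 0.213% in LPS+KU55933+Etoposide. Its deposited columns read 38640, 42869, 44594 and 40183 in LPS, 51928, 58202, 70492 and 56423 in LPS+Etoposide, and 43543, 49102, 52604 and 53470 in LPS+KU55933+Etoposide. The columns of LPS+Etoposide, which also have the larger library factors, lie above those of LPS. Corrected values were 46103, 54249 and 48359, a log2 difference of 0.23 (0.23 to 0.24) with etoposide and of -0.17 (-0.17 to -0.16) when KU55933 was added. Over the 4 other scalings these ranged from 0.17 to 0.31 and from -0.17 to -0.11. The difference between both compounds and LPS, 0.07, ranged from -0.004 with TMM factors to 0.20 with column totals, and no direction can be given for it.

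Ddx6 (ENSMUSG00000032097, 14 exons at chr9:44604892-44640731, plus strand) encodes a DEAD-box helicase that represses translation and activates decapping, and it is needed for P-bodies to form. Its deposited columns read 13106, 14541, 15126 and 13630 in LPS, 11273, 12635, 15303 and 12249 in LPS+Etoposide, and 12126, 13674, 14649 and 14890 in LPS+KU55933+Etoposide, and the 3 conditions overlap. Corrected values were 15638, 11777 and 13467. Ddx6 had the lowest log2 difference of the 10 for etoposide against LPS, -0.41 (-0.43 to -0.39), and was higher by 0.19 (0.18 to 0.21) with KU55933 than with etoposide alone. It and Tia1 were the genes lower with etoposide and higher with KU55933 under each scaling tried. With both compounds Ddx6 stood below LPS by -0.22, and this ranged from -0.29 to -0.01 over the other scalings, and the difference of -0.41 from -0.47 to -0.23.

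Dcp1a and Dcp2 make up the enzyme that removes the cap, Dcp2 as its catalytic subunit and Dcp1a as its activator. Dcp1a (ENSMUSG00000021962, 10 exons at chr14:30479535-30527063, plus strand) stood at 2468 in LPS, 2482 in LPS+Etoposide and 2545 in LPS+KU55933+Etoposide, with deposited columns from 2069 to 3225. Dcp2 (ENSMUSG00000024472, 11 exons) stood at 3895, 4068 and 3737 in that order, with deposited columns from 3264 to 5286. The log2 differences of both genes lay between -0.12 and 0.06 in all 3 comparisons. For etoposide against LPS both took the other sign under another scaling, and so did both for LPS+KU55933+Etoposide against LPS, so that no direction can be given there. Dcp1a was 0.63, 0.61 and 0.68 times as abundant as Dcp2 in counts and 0.44, 0.43 and 0.48 times per base of coding sequence.

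**Figure D2:**
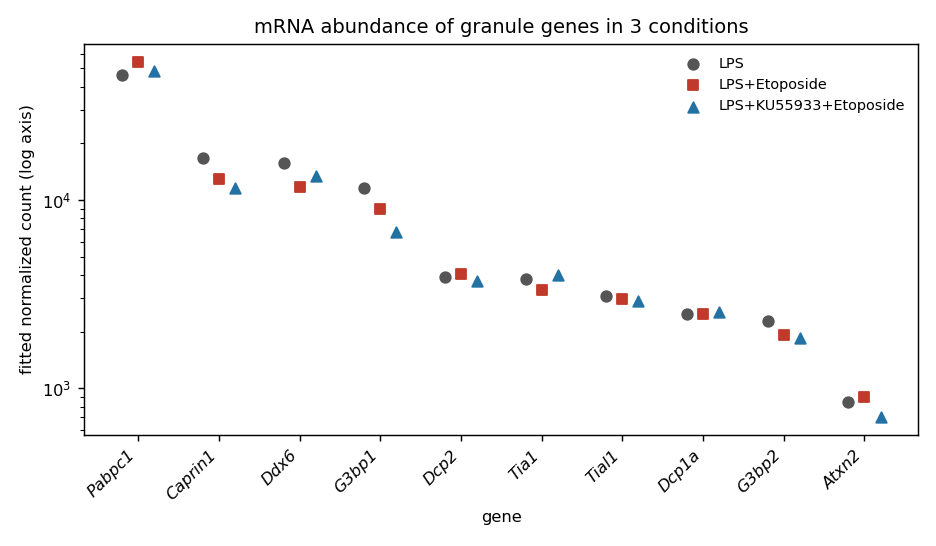
Fitted normalized count per condition (y axis, log scale, library factors removed) of the 10 granule genes (x axis, in order of their mean); each point is 1 fitted value per condition with no replicate spread. Pabpc1 lies highest at 46103 to 54249 and Atxn2 lowest at 703 to 903, and G3bp1 and Caprin1 step down from LPS to LPS+KU55933+Etoposide.

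The plot of levels by condition compares genes by count, which longer messages raise. Per kilobase of coding sequence the order in LPS was Pabpc1 (24163), Ddx6 (10792), G3bp1 (8350), Caprin1 (7855), Tia1 (3287), Dcp2 (3076), Tial1 (2632), G3bp2 (1582), Dcp1a (1367) and Atxn2 (219). The neighbours Tia1 and Dcp2, and G3bp1 and Caprin1, lay close together. Tia1 and Dcp2 changed places in LPS+Etoposide, at 2883 and 3213, and G3bp1 and Caprin1 with KU55933, at 4845 and 5435. G3bp2 lay below Dcp1a in both conditions with etoposide, at 1329 and 1374 in LPS+Etoposide and at 1284 and 1409 in LPS+KU55933+Etoposide. Per kilobase of annotated exon Pabpc1 was higher than 99.1% of the genes kept and Atxn2 higher than 33.5%, and Tia1 was at rank 8 in place of 5. The 10 genes together held 0.43% of all signal in LPS, 0.44% in LPS+Etoposide and 0.423% in LPS+KU55933+Etoposide.

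Across the 10 genes, none was past the limit for etoposide against LPS, where 37.7% of the 15613 genes kept were past it (23.4% higher and 14.4% lower). None was past it for KU55933 with etoposide against etoposide, where 18.9% of genes were (6.93% higher and 11.9% lower). For LPS+KU55933+Etoposide against LPS it was 1 of 10, G3bp1, beside 36.2% of genes (22.0% higher and 14.2% lower). Among the 7651 genes with a mean of at least 500, as all 10 granule genes have, 28.7%, 10.7% and 27.8% were past the limit in the 3 comparisons. These comparisons share libraries and are not independent of each other.

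In size, without regard to direction, the granule genes differed by less, in the median, than genes at large. With direction kept, their median lay below that of genes at large in all 3 comparisons. The share of all genes kept that lay within 0.1 of no difference on the log2 scale was not counted. The granule genes next to 0.1 in size place it between 13.4% and 25.6% for etoposide against LPS. It lies between 11.3% and 26.2% for KU55933 with etoposide against etoposide, and between 11.1% and 28.7% for both compounds against LPS. Of the 10 granule genes, 4, 3 and 5 lay within 0.1 in the 3 comparisons. Their median log2 difference was -0.12 for etoposide against LPS, -0.09 for KU55933 with etoposide against etoposide and -0.15 for both compounds against LPS, beside 0.04, -0.05 and 0.07 over all genes kept and -0.06, -0.04 and -0.06 over those with a mean of at least 500. In size alone the median difference was 0.21, 0.16 and 0.15, beside 0.41, 0.26 and 0.41 over all genes and 0.33, 0.21 and 0.34 over the more abundant ones. The smallest difference of the 30 was that of Dcp1a for etoposide against LPS, 0.01, and the largest that of G3bp1 for both compounds against LPS. Of the 30 differences 10 took the other sign under at least 1 of 4 other scalings, and each of those 10 was below 0.1 in size.

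**Figure D3:**
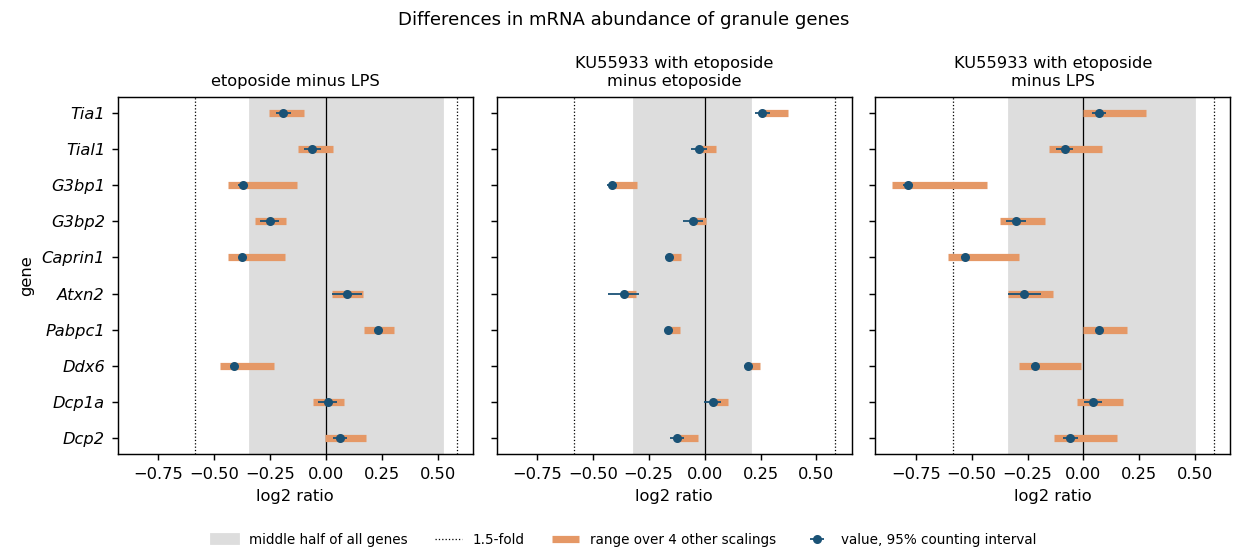
Log2 ratio (x axis) of each granule gene (y axis) in the 3 comparisons. Points are values with 95% counting intervals, orange bars span 4 other scalings, the grey band runs from the 25th to the 75th percentile of all 15613 genes, and dotted lines mark 1.5-fold. G3bp1 at -0.79 in the right panel is the one point beyond a dotted line.

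The wider machinery was read from 5 lists of 76 genes, all of which passed the filter. For etoposide against LPS 3 were past the limit higher and 7 lower (13.2%), for KU55933 with etoposide against etoposide 2 and 1 (3.95%), and for both compounds against LPS 3 and 13 (21.1%), beside the shares of 37.7%, 18.9% and 36.2% over all genes. By direction, the shares over all genes were 23.4% higher and 14.4% lower, then 6.93% and 11.9%, then 22.0% and 14.2%. The counts of each list below are to be read beside these shares. The medians of the 76 were -0.17, -0.09 and -0.26. The lists were written with earlier results of these data known, so that their counts are a description.

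Of 18 other stress granule proteins, 2 were past the limit higher and 0 lower with etoposide against LPS, 1 and 1 for KU55933 with etoposide against etoposide, and 2 and 4 with both compounds against LPS. Nufip2, an RNA-binding partner of Fmr1, stood at 2625 in LPS, 4829 in LPS+Etoposide and 4356 in LPS+KU55933+Etoposide, a log2 difference of 0.88 with etoposide. Cirbp, the cold-inducible RNA-binding protein, stood at 519, 812 and 1487, differences of 0.65 with etoposide and a further 0.87 with KU55933. The repressor Pum2 stood at 8756, 6089 and 5324, lower by -0.72 with both compounds than with LPS, and Stau2 at 265, 300 and 181, lower by -0.73 with KU55933 than with etoposide alone. The members of this list thus lay on either side of no difference, with a median of -0.24 for etoposide against LPS and -0.38 for both compounds against LPS.

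Of 21 other decapping and P-body genes, 2 were past the limit for etoposide against LPS, both lower: Lsm14a, a Ddx6-binding translational repressor (4746 to 3036, -0.64), and the Argonaute Ago1 (3246 to 2110, -0.62). Lsm6 of the Lsm ring (1365 to 874, -0.64) and Tnrc6b, the Argonaute-binding GW182 protein (5760 to 3451, -0.74), were lower past the limit for both compounds against LPS. None of the 21 was past the limit for KU55933 with etoposide against etoposide.

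Of 13 deadenylation genes, 3 (23.1%) were lower past the limit with etoposide and 4 (30.8%) with both compounds against LPS. None was higher past it. Over all genes kept 14.4% and 14.2% were lower past the limit in these comparisons, and 23.4% and 22.0% higher. Cnot6l, a catalytic subunit of CCR4-NOT, stood at 5073 in LPS, 2648 in LPS+Etoposide and 3120 in LPS+KU55933+Etoposide, a log2 difference of -0.94 with etoposide. Cnot2, a subunit of the NOT module, stood at 2789, 1477 and 1318, differences of -0.92 with etoposide and -1.08 with both compounds. Pan3, the partner of the PAN2 nuclease, stood at 3580, 2183 and 2379 (-0.71 with etoposide), and the scaffold Cnot1 at 14323, 10923 and 8652 (-0.73 with both compounds). None of the 13 was past the limit for KU55933 with etoposide against etoposide.

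Of 17 initiation factors held in stress granules, 2 were past the limit, both lower, for etoposide against LPS and for both compounds against LPS. These were the cap-binding protein Eif4e (3391, 2193 and 1759, with -0.63 for etoposide against LPS) and the scaffold Eif4g3 (5484, 3564 and 3363, with -0.62). Eif3b, a subunit of eIF3 used as a marker of stress granules, stood at 9174, 7386 and 6300 and was not past the limit, at -0.31 and -0.54 against LPS. The median of the list was -0.03 with etoposide.

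Of 7 genes that control eIF2alpha, whose phosphorylation stalls initiation, Ppp1r15a stood apart. It encodes GADD34, which recruits a phosphatase to eIF2alpha, and stood at 1246 in LPS, 3541 in LPS+Etoposide and 8024 in LPS+KU55933+Etoposide. The log2 differences were 1.51 with etoposide and a further 1.18 with KU55933, the largest upward differences among the 76 genes in both comparisons. Eif2s1, which encodes eIF2alpha itself, stood at 4378, 3826 and 2699, lower by -0.70 with both compounds than with LPS. The other 5 genes were within the limit in all 3 comparisons.

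**Figure D4:**
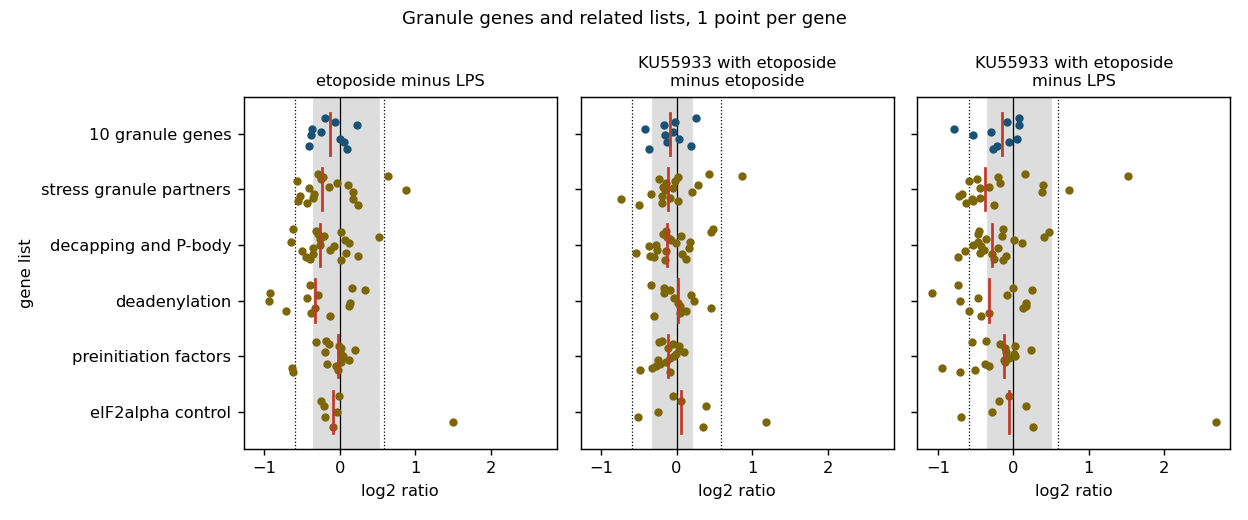
Log2 ratio (x axis) of each gene in the 10 granule genes and the 5 wider lists (y axis) in the 3 comparisons, 1 point per gene with the list median in red. The grey band runs from the 25th to the 75th percentile of all genes and dotted lines mark 1.5-fold. Ppp1r15a is the point farthest to the right in each panel, at 1.51, 1.18 and 2.69.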

How the data were processed

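Poly(A) RNA of mouse splenic B cells was sequenced (TruSeq Stranded mRNA, 100 bases, single end) in 12 libraries. The authors trimmed reads with Trim Galore and cutadapt 1.2.1, mapped them to GRCm38 with TopHat2 2.0.12, counted them with HTSeq on Ensembl genes and fitted DESeq2 1.6.3. The deposited signal is a table of normalized counts, which the columns show to be fitted means times a library factor. In 2669 genes the 12 values summed to between 0.9 and 1.1 and in 0 genes to between 1.1 and 1.5, so the values are on the scale of reads, and none was 0. In these genes of 1 read any 2 of the conditions differed by at most 0.226 on the log2 scale, so differences of thinly read genes are understated. Tables of the authors' comparisons, with their fold changes, scores and p-values, were not used.

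Ratios were log2((value + 1)/(value + 1)) in Python 3.11.15 with numpy 2.4.6, pandas 2.3.3 and scipy 1.17.1. Pairs of coding sequences were aligned with Biopython 1.88. Annotation was from GENCODE M21 and promoters from RefSeq, both GRCm38. The planned limma test was not run, for want of replicate values. The functions were tested on simulated counts with counting error only. Those counts had no further spread between replicates and were not fitted means, so the test does not bear on how far the deposited values can be trusted. Alternatives were TMM factors (trims of 30% and 5%), column totals, quantile normalization, a pseudocount of 0.5 or 5, a minimum of 50 or no filter, and limits of 1.25-fold and 2-fold, and, added after the data were seen, factors from genes of 1 read, genes with a mean of at least 500 and quantile normalization for the ratios of paralogs. The granule genes and the lists were chosen with earlier results of these data known. Named from each list were up to 4 genes past the limit in any comparison, those with the largest differences, and Eif3b. A further B cell marker is not reported here.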

Additional observations from a re-analysis of the deposited data

How the results depend on the processing

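No paired analysis was possible because the 4 columns of a condition hold 1 fitted value times a library factor, and for the same reason leaving out a replicate could not be computed. The granule genes past the limit for LPS+KU55933+Etoposide against LPS were 1 as reported, 2 with TMM factors (Caprin1 joined), 0 with quantile normalization, 2 at a limit of 0.32 on the log2 scale and 0 at 2-fold. At the limit of 0.32, 3 of them were past it for etoposide against LPS and 2 for KU55933 with etoposide against etoposide. The genes of the wider lists past the limit, 10, 3 and 16 in the 3 comparisons, became 28, 17 and 40 at the limit of 0.32 and 1, 1 and 3 at 2-fold, and the first and last became 6 and 8 with quantile normalization, and the last 9 with column totals. Over all genes the counts of 5892, 2945 and 5651 became 9154, 6495 and 9240 at the limit of 0.32, 3163, 999 and 2701 at 2-fold, and 2198, 817 and 2128 among genes with a mean of at least 500, which are fewer. The share of genes past the limit that were higher was 61.9%, 36.7% and 60.7%, and became 44.4%, 49.7% and 47.8% with quantile normalization. It was 72.1% for LPS+KU55933+Etoposide against LPS with column totals, which moved the median of all genes there by 0.13. Under the other alternatives these counts stayed within 1.5 times. The changes in the ratios of Tia1 to Tial1 and of G3bp1 to G3bp2 moved by less than their counting intervals with pseudocounts of 0.5 and 5, and the length used does not enter them. With quantile normalization, added for these ratios after the data were seen, the changes for G3bp1 to G3bp2 became 0.072, -0.31 and -0.24 in place of -0.12, -0.36 and -0.48, and those for Tia1 to Tial1 stayed within their counting intervals. Of 30 log2 differences 20 kept their sign under all 4 other scalings. Counting errors of the 10 genes were at most 0.04 on the log2 scale, and the spread between replicates is not known.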
